A study of Mus musculus with 8 samples.

Results

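Fatty acid and triglyceride synthesis in white adipose tissue (WAT) is described here through 37 genes listed by name for their roles in the pathway. Of these, 32 were named on the array and 30 were compared, each through its brightest detected probe, among 8285 genes compared in all. Epididymal WAT was taken from male C57BL6/J mice aged 4 months. There were 4 samples of mice overexpressing angiotensinogen in adipose tissue (Agt Tg) and 4 of wild type (Wt) mice. Each sample was hybridised to 1 array of the Illumina MouseRef-8 BeadChip type. Per the study's methods all mice had been fed a low fat diet. The transgene was driven by the aP2 promoter, per the study's discussion. This promoter is active in adipocytes and, by the study's own account, in macrophages too. Values are normalised log2 intensities, and differences are Agt Tg minus Wt on that scale. Since the labels do not say whether the samples are separate mice, a p-value here reflects only how these samples varied, which may be technical.

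The labels could not be checked through Agt itself, the precursor of the angiotensin peptides. Agt was 6.74, 8.80, 6.39 and 8.39 on Agt Tg replicates 1 to 4 and 7.50, 8.87, 8.11 and 8.09 on Wt replicates 1 to 4. Agt therefore did not run higher under the Agt Tg label (difference -0.56 ± 0.48, SE, limma adjusted p = 0.718). With the macrophage score described below as a covariate, Agt was 1.98-fold lower under that label (-0.99 ± 0.19, SE, adjusted p = 0.0862), with a slope on the score of -1.66 ± 0.19 (adjusted p = 0.000124). The sources used here do not say whether its probe reads the transgene. Directions rest on the labels alone. Between 11253 and 12284 probes were detected per array, and the correlation between arrays within a group was 0.957 to 0.987. Of 14 white adipocyte markers 13 were compared, and their mean level ran from 10.74 to 11.35 in Agt Tg and reached 11.28 in Wt, with the Wt arrays inside the Agt Tg range. Adipoq, which encodes adiponectin, lay between 12.86 and 13.61 on all arrays.

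White adipocytes build fatty acids from acetyl-CoA, which is made from citrate or acetate, carboxylated to malonyl-CoA and extended by fatty acid synthase with NADPH as the reductant. The products are elongated or desaturated, activated to acyl-CoA and attached to a glycerol backbone by acyltransferases, phosphatidic acid phosphatases and diacylglycerol acyltransferases. Carbohydrate and insulin drive many, but not all, of these genes through the transcription factors ChREBP and SREBP. These factors bind E-box and sterol response elements, often beside NF-Y and Sp1 sites.

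The promoters of the members on which the comparisons below turn are shown first, as the 250 bases before the annotated start in RefSeq (GRCm38.p6), 5′ to 3′ on the strand of the gene. Capitals mark matches, on either strand, to CACGTG (the E-box core), TCACNCCAC (a sterol response element type), CCAAT (the NF-Y box), GGGCGG (the Sp1 box) or TATAAA (the TATA box), and no matches overlapped in these sequences. Thrsp and Mlxipl are regulators of the pathway, Taldo1 was the member whose groups did not overlap, and Aacs was the member tied most closely to the macrophage score. Mlxipl has a pair of annotated starts 17001 bases apart, and the sources used here do not say which of them the probe reads.
Thrsp, chr7:97417551-97417800, minus strand: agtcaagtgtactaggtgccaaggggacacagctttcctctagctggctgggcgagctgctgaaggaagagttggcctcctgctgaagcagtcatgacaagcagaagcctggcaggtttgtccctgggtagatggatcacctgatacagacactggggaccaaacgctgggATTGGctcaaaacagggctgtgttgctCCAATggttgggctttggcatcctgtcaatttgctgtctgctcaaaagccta
Mlxipl, upstream start, chr5:135089640-135089889, plus strand: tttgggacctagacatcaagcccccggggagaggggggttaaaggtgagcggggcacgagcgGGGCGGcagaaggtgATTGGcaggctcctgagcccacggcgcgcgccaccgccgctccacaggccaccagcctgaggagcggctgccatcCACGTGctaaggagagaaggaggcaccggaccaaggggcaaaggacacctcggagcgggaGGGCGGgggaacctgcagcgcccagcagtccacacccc
Mlxipl, downstream start, chr5:135106641-135106890, plus strand: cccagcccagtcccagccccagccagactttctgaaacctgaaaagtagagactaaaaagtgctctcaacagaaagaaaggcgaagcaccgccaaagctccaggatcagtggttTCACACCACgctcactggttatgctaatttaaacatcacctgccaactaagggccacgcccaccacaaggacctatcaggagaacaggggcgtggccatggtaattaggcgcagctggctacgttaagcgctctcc
Taldo1, chr7:141391910-141392159, plus strand: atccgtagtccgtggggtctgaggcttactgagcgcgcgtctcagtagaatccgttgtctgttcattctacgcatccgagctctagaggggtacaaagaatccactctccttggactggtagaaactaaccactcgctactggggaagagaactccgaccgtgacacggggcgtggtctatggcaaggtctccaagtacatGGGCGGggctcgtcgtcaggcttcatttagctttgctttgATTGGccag
Aacs, chr5:125475623-125475872, plus strand: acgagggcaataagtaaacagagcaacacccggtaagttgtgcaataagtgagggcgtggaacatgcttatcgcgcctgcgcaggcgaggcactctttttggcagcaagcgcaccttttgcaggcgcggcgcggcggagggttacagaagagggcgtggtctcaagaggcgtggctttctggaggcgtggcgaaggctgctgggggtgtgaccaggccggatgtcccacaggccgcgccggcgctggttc

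Upstream of Thrsp the CCAAT box occurred on both strands, and none of the other motifs was found. The upstream window of Mlxipl, the gene of ChREBP, held an E-box core, and the downstream window held the letters TCACACCAC. No motif of the 5 was found in the window of Aacs, which says only that these letters are not in it. Of the 30 members compared, 25 matched the RefSeq table, with 33 windows. CACGTG was found in 12.1% of these windows (Elovl5, Insig1, Lpin2 and Mlxipl) and in 6.02% of all 32851 windows of the same length. TCACNCCAC was found in 3.03% against 1.05%, CCAAT in 42.4% against 33.8% and GGGCGG in 60.6% against 32.7%. TATAAA was found in 0% of the windows of members and in 12.4% of all windows. A match is a description of the letters and was not tested as a binding site.

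In the comparison of Agt Tg with Wt no member passed at adjusted p under 0.05 (lowest adjusted p = 0.445, limma, Benjamini-Hochberg over all probes), and 0% of all genes did. The differences ran from -0.70 for Scd2 to 0.51 for Agpat1. Their median was -0.02, with 14 members above 0 and 16 below, beside a median of 0.01 over all genes. At unadjusted p under 0.05, 2 of 30 members were higher in Agt Tg (Agpat1 and Taldo1, 6.67%) where 3.93% of all genes were, and 1 was lower (Thrsp, 3.33%) where 5.35% of all genes were. The 2 groups of arrays did not overlap for 1 member on the higher side (Taldo1, 3.33% beside 3.05% of all genes) and for 0 on the lower side (beside 3.31% of all genes). These shares are near those of all genes. The median standard error of a member's difference was 0.21, and in bulk tissue fewer cells of a type and less RNA per cell cannot be told apart.

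**Figure D1:**
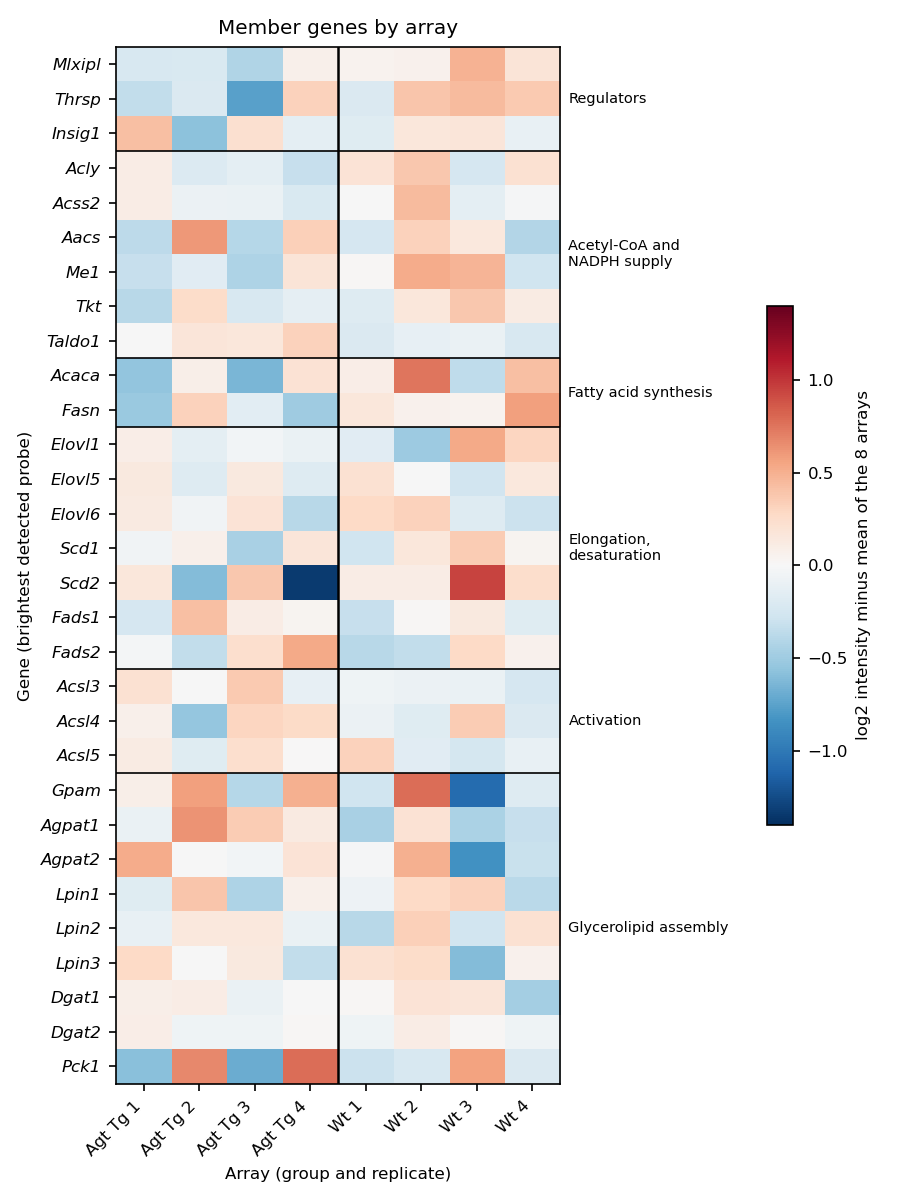
Log2 intensity of each of the 30 members on each of the 8 arrays, as the deviation from the gene's mean over the arrays (colour scale, log2 units), with genes in rows grouped by role and the Agt Tg and Wt arrays parted by a line. Wt replicate 2 was the highest array for 9 members and Agt Tg replicate 3 the lowest for 7, and the colours do not split by group.

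The arrays that held the highest and lowest values differed between the members. Wt replicate 2 held the highest value of 9 members and Wt replicate 3 that of 7, while Agt Tg replicate 3 held the lowest value of 7 members and Wt replicate 3 the lowest of 5. The median SD within a group was 0.32 over the members and 0.29 over all genes. A property that differed between the arrays of a group was their level of macrophage markers. The macrophage score, the mean log2 intensity of the 19 macrophage markers compared of 24 listed, was 9.72, 8.27, 9.64 and 8.69 on Agt Tg replicates 1 to 4 and 9.61, 8.93, 9.28 and 9.52 on Wt replicates 1 to 4. The score ran lowest on Agt Tg replicates 2 and 4, and the groups overlapped (difference -0.26, exact two-sided permutation p = 0.543, 13 of 19 markers lower in Agt Tg). The group comparison was therefore also run with this score as a covariate.

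With the macrophage covariate, too, no member passed at adjusted p under 0.05 (lowest adjusted p = 0.206, limma), where 0.0241% of all genes did. At unadjusted p under 0.05, 5 members were lower in Agt Tg (Thrsp, Acaca, Me1, Mlxipl and Tkt, 16.7%) beside 6.43% of all genes, and 1 was higher (Taldo1, 3.33%) beside 5.78% of all genes. The median difference was -0.01 over the members and 0.01 over all genes, with 14 members above 0 and 16 below. The count of 6 rested in part on single arrays, as it was 3 without Agt Tg replicate 1 and 1 (Acaca) without Agt Tg replicate 3. Without Wt replicate 3, Acaca passed at adjusted p = 0.0111 in this fit.

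**Figure D2:**
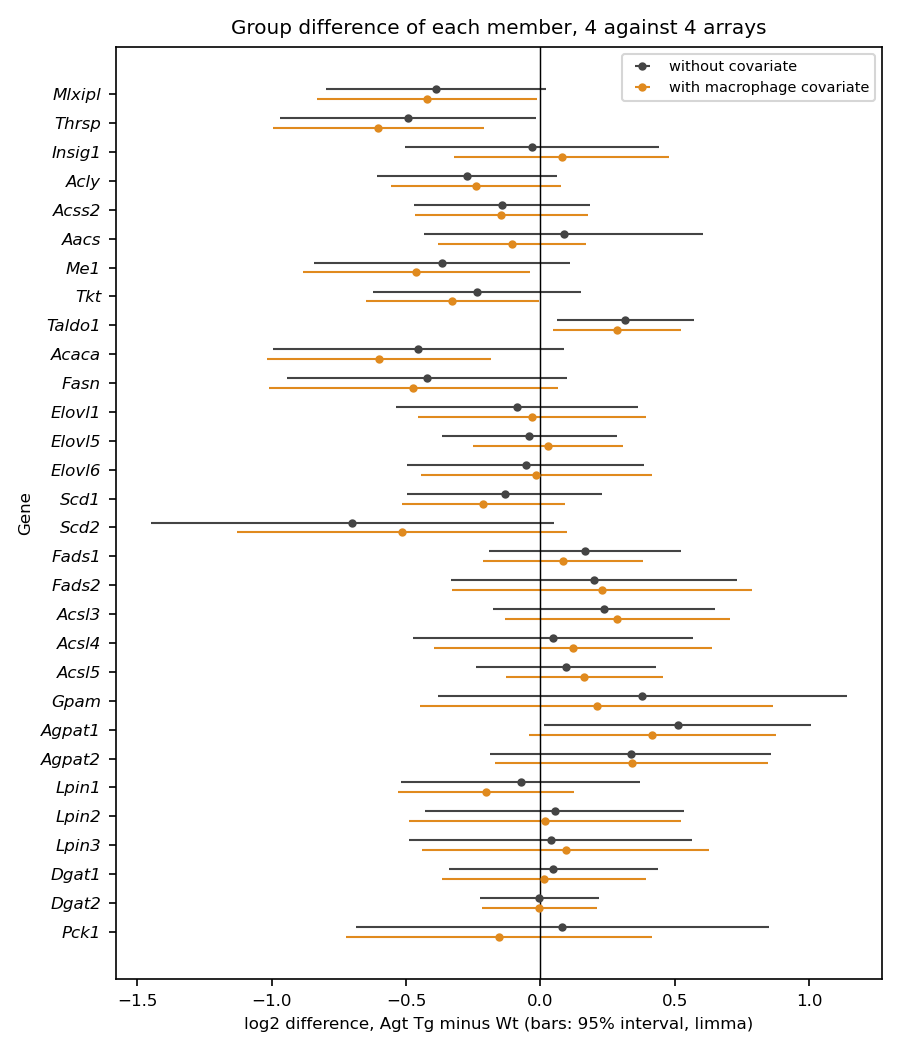
Difference Agt Tg minus Wt (horizontal axis, log2) of each of the 30 members, without (grey) and with (orange) the macrophage covariate, with bars for the 95% interval from limma over 4 arrays against 4. The intervals of Taldo1 lie above 0 in both fits and those of Thrsp below 0, and no member passed after adjustment over all probes.

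Among the regulators, Mlxipl and Thrsp were lower in Agt Tg without passing the adjusted test. Mlxipl, which encodes the glucose-responsive factor ChREBP, was 7.10, 7.11, 6.91 and 7.40 on Agt Tg replicates 1 to 4 and 7.38, 7.38, 7.81 and 7.51 on Wt replicates 1 to 4. Agt Tg replicate 4 alone reached the level of the lowest Wt arrays. The difference was -0.39 ± 0.19 (SE, limma adjusted p = 0.518), and -0.42 ± 0.19 with the covariate (adjusted p = 0.389). On the authors' log2 values, which have no background correction, the difference of Mlxipl was -0.23. Under median scaling in place of quantile normalisation the groups of Mlxipl did not overlap, and the median difference of all genes lay at -0.12.

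Thrsp, a nuclear and cytosolic protein induced by thyroid hormone and carbohydrate together with the lipogenic enzymes, was 11.05, 11.20, 10.63 and 11.72 on Agt Tg replicates 1 to 4. On Wt replicates 1 to 4 it was 11.19, 11.78, 11.84 and 11.76. Wt replicate 1 sat among the Agt Tg arrays and Agt Tg replicate 4 near the other Wt arrays, so the groups overlapped. The difference was -0.49 ± 0.22 (SE, limma adjusted p = 0.504), and -0.60 ± 0.18 with the covariate (adjusted p = 0.206), a 1.52-fold lower level. Without Agt Tg replicate 3 the difference was -0.32. Insig1, which holds SREBP in the endoplasmic reticulum, differed by -0.03 ± 0.22 (SE), with values from 7.87 to 8.87 in Agt Tg and from 8.28 to 8.62 in Wt. Its 2 dimmer probes gave -0.22 and -0.11.

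**Figure D3:**
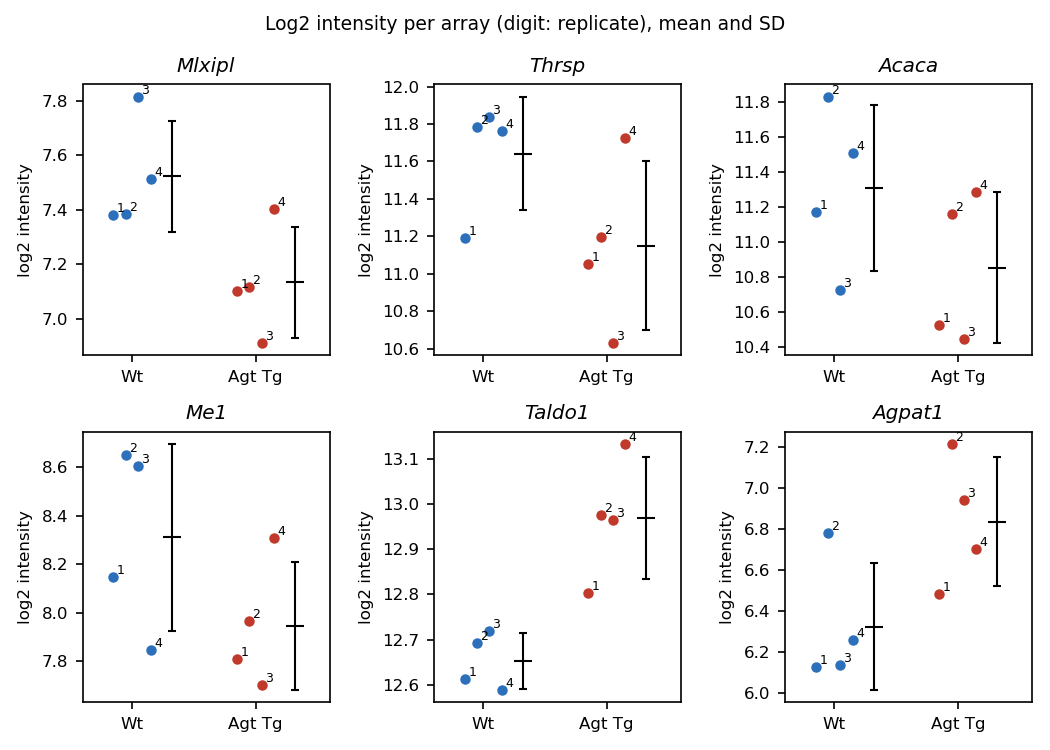
Log2 intensity of Mlxipl, Thrsp, Acaca, Me1, Taldo1 and Agpat1 on each array (vertical axis), with the replicate number beside each point and the mean and SD of each group in black (n = 4). The Taldo1 values of Agt Tg, from 12.80 to 13.13, all lie above those of Wt, from 12.59 to 12.72, while the other 5 genes overlap between the groups.

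In the supply of acetyl-CoA, Acly, which cleaves citrate, was 12.51, 12.21, 12.27 and 12.08 on Agt Tg replicates 1 to 4 and 12.60, 12.78, 12.17 and 12.62 on Wt replicates 1 to 4. Wt replicate 3 lay among the Agt Tg arrays, and the difference was -0.27 ± 0.15 (SE, limma adjusted p = 0.567). Acss2, which makes acetyl-CoA from acetate, differed by -0.14 ± 0.15 (SE), and its dimmer probe gave 0.34. Aacs, which activates the ketone body acetoacetate for lipid synthesis, was 10.81, 11.78, 10.78 and 11.51 on Agt Tg replicates 1 to 4 and 10.94, 11.50, 11.32 and 10.77 on Wt replicates 1 to 4. Both groups of Aacs spanned nearly the same range, and the difference was 0.09 ± 0.24 (SE).

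The genes of NADPH and sugar phosphate supply lay on different sides of 0. Me1, the cytosolic malic enzyme, was 7.81, 7.97, 7.70 and 8.31 on Agt Tg replicates 1 to 4 and 8.15, 8.65, 8.60 and 7.84 on Wt replicates 1 to 4. Wt replicate 4 and Agt Tg replicate 4 crossed the groups. The difference of Me1 was -0.37 ± 0.22 (SE, limma adjusted p = 0.594), and -0.46 ± 0.20 with the covariate (adjusted p = 0.367). Its dimmer probe gave -0.76 ± 0.23 (SE), and with the mean of its probes the groups of Me1 did not overlap.

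Tkt and Taldo1 encode transketolase and transaldolase, which are among the enzymes of the non-oxidative pentose phosphate pathway. Tkt was 9.41, 10.06, 9.58 and 9.68 on Agt Tg replicates 1 to 4 and 9.61, 9.96, 10.18 and 9.92 on Wt replicates 1 to 4, a difference of -0.24 ± 0.18 (SE) and, with the covariate, of -0.33 ± 0.15. Agt Tg replicate 2 lay within the Wt range. Taldo1 was 12.80, 12.98, 12.97 and 13.13 on Agt Tg replicates 1 to 4 and 12.61, 12.69, 12.72 and 12.59 on Wt replicates 1 to 4. Every Agt Tg array was above every Wt array for Taldo1, a 1.25-fold difference (0.32 ± 0.12, SE, 95% interval 0.06 to 0.57, limma adjusted p = 0.445). With the covariate it was 0.28 ± 0.11 (SE, adjusted p = 0.328), and without any single array it stayed between 0.26 and 0.37. Median scaling gave 0.20, with overlapping groups. G6pdx and Pgd, of the oxidative branch, were not analysed here.

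Fatty acid synthesis itself was represented by Acaca and Fasn, since Acacb was not analysed here. Acaca, the cytosolic acetyl-CoA carboxylase, was 10.52, 11.16, 10.45 and 11.29 on Agt Tg replicates 1 to 4 and 11.17, 11.83, 10.73 and 11.51 on Wt replicates 1 to 4. Wt replicate 3 was low and the groups overlapped. The difference was -0.45 ± 0.25 (SE, limma adjusted p = 0.562), and -0.60 ± 0.19 with the covariate, a 1.52-fold lower level (adjusted p = 0.234). Without Wt replicate 2 the difference without the covariate was -0.28. Fasn, fatty acid synthase, was 4.59, 5.43, 4.96 and 4.61 on Agt Tg replicates 1 to 4 and 5.26, 5.17, 5.16 and 5.68 on Wt replicates 1 to 4. The probe was close to background, being detected on 1 of 4 Agt Tg arrays and 4 of 4 Wt arrays, and the difference was -0.42 ± 0.24 (SE, limma adjusted p = 0.569), or -0.13 on the authors' log2 values.

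Among the desaturases, Scd1, which introduces the double bond of oleate, was 13.32, 13.44, 12.92 and 13.54 on Agt Tg replicates 1 to 4 and 13.09, 13.53, 13.73 and 13.41 on Wt replicates 1 to 4. The groups overlapped, and the difference was -0.13 ± 0.17 (SE). It ran from -0.25 without Wt replicate 1 and -0.21 without Agt Tg replicate 4 to -0.035 without Wt replicate 3 and -0.0034 without Agt Tg replicate 3, and was -0.26 under median scaling. Scd2, its paralogue, was 7.23, 6.46, 7.45 and 5.73 on Agt Tg replicates 1 to 4 and 7.17, 7.17, 8.02 and 7.32 on Wt replicates 1 to 4. Agt Tg replicates 2 and 4, the arrays of lowest macrophage score, were the low ones for Scd2. The difference was -0.70 ± 0.35 (SE, limma adjusted p = 0.524), and -0.52 ± 0.29 with the covariate. Without Agt Tg replicate 4 the difference of Scd2 was closer to 0, at -0.37, and on the authors' log2 values it was -0.36. Fads1 and Fads2, desaturases of polyunsaturated fatty acids, differed by 0.17 ± 0.16 and 0.20 ± 0.25 (SE), and Fads2 was detected on 2 of 4 arrays of each group.

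The elongases did not differ beyond the spread between arrays. Elovl6, which extends palmitate to stearate, was 8.40, 8.22, 8.47 and 7.89 on Agt Tg replicates 1 to 4 and 8.55, 8.59, 8.09 and 7.97 on Wt replicates 1 to 4, a difference of -0.06 ± 0.20 (SE) whose sign turned in other settings. Elovl1, an elongase of saturated very long chains, differed by -0.09 ± 0.21 (SE), and its 3 dimmer probes gave differences from -0.02 to 0.01. Elovl5, an elongase of polyunsaturated chains, differed by -0.04 ± 0.15 (SE). Elovl3, an elongase of brown fat and skin, was detected on 0 arrays. Of the acyl-CoA synthetases, which activate fatty acids, Acsl3 differed by 0.23 ± 0.19, Acsl4 by 0.05 ± 0.24 and Acsl5 by 0.10 ± 0.15 (SE), with Acsl4 detected on 3 of 4 Agt Tg arrays. Acsl1 was not analysed here.

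In glycerolipid assembly no acyltransferase passed the adjusted test. Gpam, the mitochondrial glycerol-phosphate acyltransferase, was 6.26, 6.75, 5.78 and 6.68 on Agt Tg replicates 1 to 4 and 5.90, 6.96, 5.10 and 6.00 on Wt replicates 1 to 4, a difference of 0.38 ± 0.35 (SE). Wt replicates 2 and 3 held the highest and the lowest value. Without Wt replicate 3 the difference of Gpam was 0.08, without Wt replicate 2 it was 0.70, and on the authors' log2 values it was 0.13. The probe was detected on 4 of 4 Agt Tg and 3 of 4 Wt arrays. Agpat1, which adds the next acyl chain, was 6.48, 7.21, 6.94 and 6.70 on Agt Tg replicates 1 to 4 and 6.13, 6.78, 6.14 and 6.26 on Wt replicates 1 to 4. Wt replicate 2 lay among the Agt Tg arrays, and the difference was 0.51 ± 0.23 (SE, 1.42-fold, limma adjusted p = 0.505) and 0.42 ± 0.21 with the covariate (0.24 without Agt Tg replicate 3). Without the covariate it was 0.24 on the authors' log2 values and 0.32 under median scaling. Agpat2, the isoform lost in a human lipodystrophy, differed by 0.34 ± 0.24 (SE), from 11.89 to 12.45 in Agt Tg and from 11.08 to 12.43 in Wt. Agpat3 was detected on 0 arrays.

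The phosphatidic acid phosphatases Lpin1, Lpin2 and Lpin3 differed by -0.07 ± 0.21, 0.05 ± 0.22 and 0.04 ± 0.24 (SE), with Lpin2 detected on 2 of 4 and Lpin3 on 3 of 4 Wt arrays. Dgat1, which adds the last acyl chain, was 8.72, 8.74, 8.54 and 8.63 on Agt Tg replicates 1 to 4 and 8.65, 8.82, 8.81 and 8.16 on Wt replicates 1 to 4, a difference of 0.05 ± 0.18 (SE) that turned to -0.10 without Wt replicate 4. Dgat2, the other enzyme of that step, was 14.83, 14.68, 14.68 and 14.75 on Agt Tg replicates 1 to 4 and 14.68, 14.84, 14.75 and 14.68 on Wt replicates 1 to 4. Its probe ranked between 11 and 16 among 25696 probes on every array, and quantile normalisation gives probes of the same rank the same value, which leaves Dgat2 little room to vary. The difference of Dgat2 was 0.00 ± 0.10 (SE, 95% interval -0.23 to 0.22). Pck1, which makes glycerol-phosphate from pyruvate-derived carbon in fat, was 4.86, 6.11, 4.75 and 6.23 on Agt Tg replicates 1 to 4 and 5.15, 5.22, 6.01 and 5.24 on Wt replicates 1 to 4. The Agt Tg arrays formed a low and a high pair around the Wt arrays (difference 0.08 ± 0.35, SE), and Pck1 was detected on 2 of 4 Agt Tg arrays. Pnpla3, a lipase and acyltransferase of lipid droplets, was not analysed here.

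Members of an enzyme family were compared through the group difference of their log2 difference. In 8 pairs the exact two-sided permutation p was 0.343 or higher (adjusted p = 0.971 for all pairs), where 4 arrays against 4 allow no p below 0.0286. The widest contrast was between Scd1 and Scd2, at 0.57. Agpat1 and Agpat2 gave 0.17. The pair of Dgat1 and Dgat2 gave 0.05, but since Dgat2 had little room to vary this contrast reads Dgat1 nearly alone.

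Between arrays of a group, the member most closely tied to the macrophage score was Aacs. In the fit of group and score together, Aacs changed by -0.75 ± 0.13 (SE) on the log2 scale per unit of score (95% interval -1.03 to -0.47, limma adjusted p = 0.00301), and it was the 1 member of 30 called with a negative slope (3.33%), beside 2.26% of all genes. No member was called with a positive slope, beside 4.47% of all genes. The median slope was -0.13 over the members (12 above 0, 18 below) and -0.02 over all genes. Agt Tg replicates 2 and 4 and Wt replicate 2 held the highest values of Aacs and the lowest scores. Over the 8 arrays Pearson's r was -0.953 (exact permutation p = 0.00067, adjusted p = 0.0201 over the 30 members) and Spearman's rho -0.833 (exact permutation p = 0.0154, adjusted p = 0.231). Without the 2 arrays farthest from the median score r was -0.934. The slope lost its call without Agt Tg replicate 2 (-0.80, adjusted p = 0.0605).

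**Figure D4:**
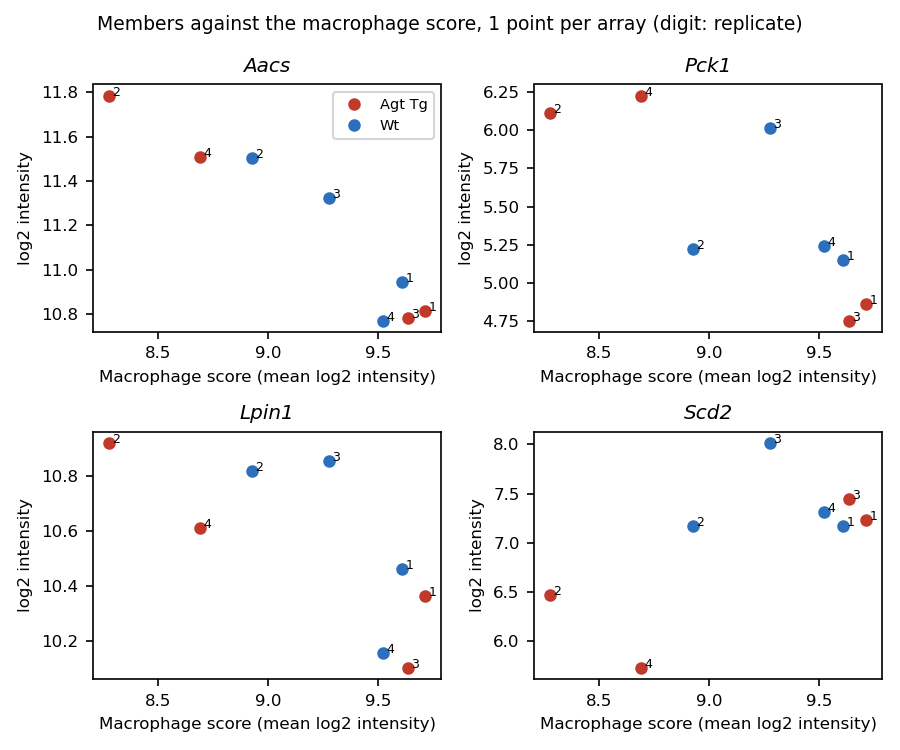
Log2 intensity of Aacs, Pck1, Lpin1 and Scd2 (vertical axis) against the macrophage score (horizontal axis, mean log2 intensity of 19 markers), 1 point per array with its replicate number, Agt Tg in red and Wt in blue. Aacs runs from 11.78 at the lowest score, 8.27, to 10.81 at the highest, 9.72. Scd2 has its lowest values at the 2 lowest scores. Its Pearson's r was -0.137 without the 2 arrays farthest from the median score.

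The next slopes did not pass the adjusted test. Pck1 had a slope of -0.93 ± 0.27 (SE, limma adjusted p = 0.0603, and -0.40 on the authors' log2 values), Lpin1 of -0.51 ± 0.16 (adjusted p = 0.0723) and Acaca of -0.57 ± 0.20 (adjusted p = 0.11). Pck1 is a dim probe, detected on 2 of 4 Agt Tg arrays. It read 4.86 and 4.75 on Agt Tg replicates 1 and 3, the arrays of highest score. Lpin1 was 10.36, 10.92, 10.10 and 10.61 on Agt Tg replicates 1 to 4 and 10.46, 10.82, 10.85 and 10.15 on Wt replicates 1 to 4, with the low values on arrays of high score in both groups. The estimates for Thrsp (-0.44), Tkt (-0.36) and Fads1 (-0.32) were negative as well, and that of Tkt was 0.067 with its probes averaged. The slope of Thrsp was -0.79 without Agt Tg replicate 2 and -0.29 without Agt Tg replicate 3. Fads1 was 10.86, 11.51, 11.19 and 11.13 on Agt Tg replicates 1 to 4 and 10.77, 11.11, 11.23 and 10.92 on Wt replicates 1 to 4. Scd2, in contrast, had a positive slope of 0.72 ± 0.29 (SE, limma adjusted p = 0.182). Over the 8 arrays the r of Scd2 with the score was 0.656 (Pearson, exact permutation p = 0.0728). Without the 2 arrays farthest from the median score it was -0.137. The call count changed with single arrays, to 5 without Wt replicate 3 (Aacs, Acaca, Gpam, Lpin1 and Pck1) and to 2 without Wt replicate 2 (Aacs and Pck1). In Agt Tg the mean of the white adipocyte markers was higher on the arrays of low score. It was 11.35 and 11.27 on Agt Tg replicates 2 and 4 and 10.86 and 10.74 on replicates 1 and 3. Among the Wt arrays it was highest, at 11.28, on replicate 2, which had the lowest score of that group. The slopes of the white adipocyte markers compared were negative except those of Lep (0.19) and Lpl (8.4e-05). Slopes passed the adjusted test for Fabp4 (-1.53, limma adjusted p = 0.0121) and Pnpla2 (-0.55, adjusted p = 0.00489), while that of Cidec was -0.03. The part of the white adipocyte markers in the slopes of the members was not tested.

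Other cell types were read through those of their listed markers that were detected. Markers of B and plasma cells were lower in Agt Tg for 6 of 6 genes compared of 10 listed (mean level 4.80 to 6.71 against 6.10 to 8.19, exact two-sided permutation p = 0.0857), and markers of T and NK cells for 7 of 7 compared of 12 listed (6.11 to 7.05 against 6.58 to 7.50, exact p = 0.171). Fcer2a was detected on 1 of 4 Agt Tg and 3 of 4 Wt arrays, and Pou2af1 and Cd3d on 2 and 4. These 3 genes passed the detection filter mainly through Wt, where they were higher, so the counts are not independent of the filter. Mast cell markers were higher for 5 of 6 compared of 8 listed (6.69 to 7.82 against 6.03 to 7.29, exact p = 0.4), and fibroblast and progenitor markers for 6 of 10 (difference 0.03, exact p = 0.771). Of 7 brown adipocyte markers 3 were compared (Cox7a1, Cox8b and Cidea), and all 3 were lower. Their mean level was 7.63 to 8.16 in Agt Tg and 8.02 to 8.50 in Wt (exact p = 0.143). Cidea is also among the listed white adipocyte markers. Endothelial markers were lower in Agt Tg for 7 of 9 compared of 10 listed (exact p = 0.6). Mesothelial markers were lower for 4 of 7 compared of 8 listed (exact p = 0.8). The 2 epididymis markers compared of 9 listed were both higher (exact p = 0.543). One of them, Adam7, was detected on 3 of 4 Agt Tg arrays and 1 of 4 Wt arrays. Fcer1a, a mast cell marker, was detected on 4 of 4 Agt Tg arrays and 2 of 4 Wt arrays. Of all genes, 48.0% had a difference below 0. The part of these cell types in the differences of the members was not tested.

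A wider list of the pathway, 50 genes of transcriptional control, citrate and NADPH supply, elongation and glycerolipid assembly outside the 37, gave 38 compared genes, with a median difference of -0.01. No gene of this list passed at adjusted p in either group comparison. At unadjusted p under 0.05, 1 was higher in Agt Tg (2.63% beside 3.93% of all genes) and 1 lower (2.63% beside 5.35%). With the covariate 3 were lower (Idh2, Mid1ip1 and Slc2a4, 7.89% beside 6.43%) and 0 higher (beside 5.78%), and 24 of 38 lay below 0, with a median of -0.06. Plpp3, a lipid phosphate phosphatase, was 13.33, 13.59, 13.37 and 13.55 on Agt Tg replicates 1 to 4 and 12.90, 13.44, 13.06 and 13.20 on Wt replicates 1 to 4, a difference of 0.31 ± 0.14 (SE, limma adjusted p = 0.503), or 0.09 with its probes averaged. Mid1ip1, a relative of Thrsp that promotes polymerisation of acetyl-CoA carboxylase, was 8.37, 8.31, 8.22 and 8.53 on Agt Tg replicates 1 to 4 and 8.75, 8.65, 8.60 and 8.86 on Wt replicates 1 to 4. Every Agt Tg array of Mid1ip1 lay below every Wt array, as was so for 3.31% of all genes, a difference of -0.36 ± 0.15 (SE, limma adjusted p = 0.49) and, with the covariate, of -0.36 ± 0.16. Idh2, the mitochondrial NADPH-producing isocitrate dehydrogenase, differed by -0.49 ± 0.23 (SE), and by -0.59 ± 0.21 with the covariate.

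The transcription factor genes Srebf1 and Nr1h3, which encode SREBP-1 and LXR alpha, differed by 0.03 ± 0.24 and 0.08 ± 0.14 (SE). Negative slopes on the macrophage score were called for 4 of the 38 genes (10.5%, beside 2.26% of all genes) and positive ones for 0. They were Mogat1, a monoacylglycerol acyltransferase (-1.29 ± 0.22, SE, limma adjusted p = 0.00285), and Slc2a4, which encodes the insulin-responsive glucose transporter (-1.12 ± 0.20, adjusted p = 0.00328). Gpat3, the glycerol-phosphate acyltransferase of the endoplasmic reticulum (-1.02 ± 0.23, adjusted p = 0.0165), and Pparg, the adipogenic nuclear receptor (-0.55 ± 0.14, adjusted p = 0.0298), were the others. Without Agt Tg replicate 2 the calls of Mogat1 (adjusted p = 0.126), Gpat3 (0.152) and Pparg (0.196) ended, and without Agt Tg replicate 3 those of Gpat3 (0.115) and Pparg (0.195). Median scaling ended the calls of Gpat3 (adjusted p = 0.176) and Pparg (0.253). Pparg also lost its call without Agt Tg replicate 1 (adjusted p = 0.056) or 4 (0.0725), without Wt replicate 2 (0.0766) or 4 (0.057), and with its probes averaged (-0.29, 0.446). Slc2a4 was 8.07, 9.18, 7.92 and 9.46 on Agt Tg replicates 1 to 4 and 8.27, 9.51, 9.06 and 8.59 on Wt replicates 1 to 4, with the same arrays high as for Aacs. With the covariate its group difference was -0.49 ± 0.19 (SE, limma adjusted p = 0.333), beside -0.20 ± 0.36 without it and -0.13 with the white adipocyte score as the covariate.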

How the data were processed

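Total RNA of epididymal WAT from 4 Agt Tg and 4 Wt samples had been labelled with biotin and hybridised to BeadChips, per the labels. The authors deposited un-normalised intensity values per probe, and the deposited table pairs each with a detection p-value. The authors also deposited log2 values made with lumi, in a version that the sources used here do not give. These were quantile normalised without background correction and served as an alternative.

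Processing used limma 3.58.1 (R 4.3.3), with normexp background correction with negative controls inferred from detection p-values, quantile normalisation and an offset of 16 (neqc). Probes with detection p under 0.05 on at least 4 of 8 arrays were kept (11624 of 25696, 45.2%). Each was fitted with lmFit and eBayes (trend), with group alone or with the centred macrophage score, and Benjamini-Hochberg adjustment ran over all kept probes. A gene was its brightest kept probe. Offset and background correction make differences of dim probes uncertain, and precision is limited by the number of arrays. The fits were also run on simulated arrays with noise independent between probes, so shifts shared by the probes of an array were not part of that check. Probe names came from the platform annotation (23978 probes with 1 symbol, 0 with several, 1718 with none), of which 23962 were matched by Entrez ID. Left out were 1 blank row and 1 probe found only in the log2 table. The labels give no chip or scan date.

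The members and gene lists were chosen with earlier results of these data known. Values by array are given for Mlxipl, Acly, Acaca, Fasn, Scd1, Elovl6, Gpam, Dgat1, Dgat2, Pck1, members whose groups did not overlap and up to 8 members of smallest p in each fit, and up to 6 other pathway genes of smallest p in each were eligible to be named. Srebf1, Nr1h3 and Adipoq were named besides these, after their values were seen. Alternatives changed the background correction (none), the normalisation (median scaling, or the log2 table of the authors), the offset (50), the filter (none, or detection p under 0.01 on all 8 arrays), the probes of a gene (averaged), the moderation (no trend, or robust), the weighting of arrays, the blocking by replicate number, the covariate (core macrophage markers, their first principal component, or the white adipocyte score) and the arrays (each left out in turn).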

Additional observations from a re-analysis of the deposited data

Results flagged for a closer look

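In 3 of the 60 groups of 4 arrays tested (30 members, each group apart), 1 array stood apart from the other arrays of its group by Dixon's ratio, where chance gives about 1 in 20 groups. Thrsp was 11.19 on Wt replicate 1, against 11.76 on the nearest Wt array (ratio 0.882). Pck1 was 6.01 on Wt replicate 3, against 5.24 on the nearest Wt array (ratio 0.894). Acsl3 was 6.02 on Wt replicate 4, against 6.17 on the nearest Wt array (ratio 0.834).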

How the results depend on the processing

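No setting gave a member call in the group comparison without the covariate. The other counts moved with the processing, and the cause was not tested. With the probes of a gene averaged, 5 members were at unadjusted p under 0.05 (3 in the main setting), 2 had groups that did not overlap and 2 had called slopes, and the slope of Tkt turned to 0.067. Array weights gave 6 at unadjusted p, 1 call with the covariate (Acaca, adjusted p = 0.0111), 9 called slopes, and differences of 0.00191 for Elovl6, 0.022 for Dgat2 and -0.013 for Pck1. Median scaling turned Dgat1 to -0.11 and Dgat2 to 0.054, moved the median difference of all genes from 0.014 to -0.122 and the members below 0 from 16 to 20, and gave 50 genes higher and 813 lower at unadjusted p in place of 326 and 443. Leaving out single arrays gave 1 to 4 members at unadjusted p in the group comparison (1 without Wt replicate 4), 1 to 7 with the covariate, 1 to 3 non-overlapping members, 0 to 5 called slopes and 0 to 1 calls with the covariate. It gave differences from -0.10 to 0.12 for Dgat1, -0.0345 to 0.0307 for Dgat2, -0.165 to 0.0633 for Elovl6 and -0.16 to 0.33 for Pck1. The deviations of same-numbered samples from their group means correlated at 0.365, 0.397, -0.047 and -0.096. No such correlation was computed between samples of different number, so these values cannot decide whether the numbers pair the samples. The main fits used no block. With the replicate number as a block, 5 members were at unadjusted p, 1 was called with the covariate (Thrsp, adjusted p = 0.0496) and 2 slopes were called (Aacs and Pck1), while the slopes of Mogat1 (-0.61), Gpat3 (-0.66), Pparg (-0.52) and Slc2a4 (-1.15) were not called and that of Acaca was -0.012. The slope of Pparg was also not called with no filter (adjusted p = 0.0555), eBayes without trend (0.0994) or the core macrophage markers (0.0538). Dim probes, such as those of Fasn, Fads2 and Pck1, limit what can be read of those genes.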
